A study of Mus musculus with 54 samples.

Results

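Retinas of rd1 and wild-type (WT) mice were compared at postnatal day 13 (PN13). The comparison took the 3 arrays whose titles give rd1 and PN13 and the 3 whose titles give WT and PN13, which are 6 of the 54 arrays of the series, and it covered 18193 genes with an annotated symbol. Both groups were C3H mice, one with 2 wild-type alleles and the other homozygous for rd1, and in both the tissue was the dissected neural retina, with total RNA purified on a caesium gradient. Neither group received a treatment. The arrays are called biological replicates in the labels, but the number of mice behind an array is not given. The p-values thus measure the spread between arrays of 1 genotype and age, pooled over the 50 arrays of the 10 ages fitted. Xist, transcribed from the inactive X chromosome of females, read 12.81 to 13.37 on the log2 scale in the 6 arrays, and the Y-linked gene Eif2s3y read 6.59 to 8.40, against a lowest value of 3.56 for Eif2s3y over the 54 arrays. Whether an array held RNA of more than 1 mouse was not tested.

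In a rod, light activates the photopigment, the G protein transducin relays the signal, and a phosphodiesterase then breaks down cyclic GMP, which closes cation channels in the outer segment. Pde6b encodes the beta subunit of that phosphodiesterase, and the rd1 allele disrupts it. Without the enzyme, cyclic GMP and calcium rise in rods, rods are lost, Müller glia and microglia respond, and cones follow later. The title of the series names the proteasome, the complex that degrades tagged proteins, so its subunits were read beside the genes of vision, stress, glia and immunity.

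At PN13, 1364 of the 18193 genes were called between the genotypes (7.5%), that is, had an adjusted p under 0.05 (limma, Benjamini-Hochberg adjustment over all genes). Of these, 744 were higher in rd1 (4.09%) and 620 lower (3.41%). The counts of called genes in the lists below stand against these shares of all genes. When each array was centred on amacrine and ganglion cell genes, 422 were higher and 941 lower. Most differences were small. At least 2-fold differences were called for 37 genes that were higher and 19 that were lower, and the median of all genes was 0.026 on the log2 scale, with quartiles of -0.048 and 0.099. The 3 rd1 arrays lay wholly above the 3 WT arrays for 729 of the called-higher genes and wholly below for 609 of the called-lower genes, and the arrays overlapped for 26 called genes. Over all genes, called or not, the rd1 arrays lay wholly above WT for 13.6% and wholly below for 8.17%. Values below are log2 differences, rd1 minus WT, each followed by ± its standard error (SE) from the model, and array values are log2 intensities.

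**Figure D1:**
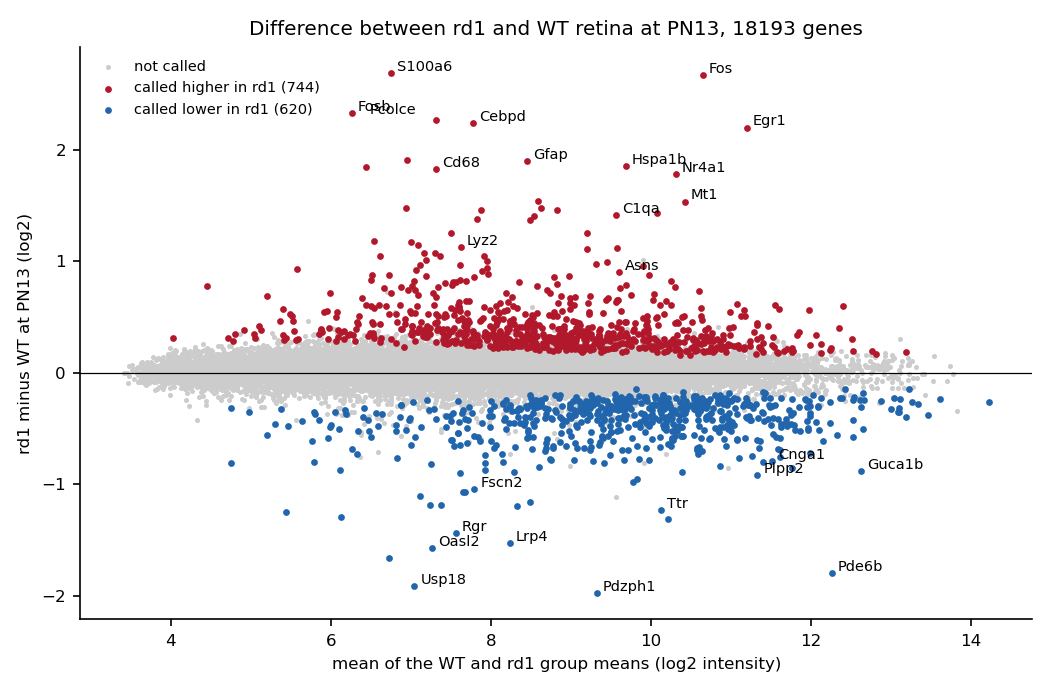
Difference between rd1 and WT at PN13 (log2, y axis) against the mean of both group means (log2 intensity, x axis), 1 point per gene for 18193 genes. Red points are the 744 genes called higher and blue points the 620 called lower (adjusted p under 0.05), and grey points were not called; S100a6 and Fos lie highest, and Pdzph1 and Usp18 lowest.

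Promoters of 4 called genes are shown because they carry, in capitals, the letters that the factors of vision genes, of heat shock and of interferon are known to bind. Each is the 250 bases before 1 annotated start, read 5′ to 3′ on the strand of the gene from RefSeq (GRCm38.p6). Samd11 lies at chr4:156255343-156255592 on the minus strand, Guca1a at chr17:47400607-47400856 on the minus strand, Hspa1b at chr17:34959239-34959488 on the minus strand, and Ifit1 at chr19:34640639-34640888 on the plus strand. In Samd11 and Guca1a the capitals mark TAATCC or its complement, the core site of the photoreceptor factors CRX and OTX2. In Hspa1b they mark GAANNTTC, the core of a heat shock element, and in Ifit1 the interferon response element.
Samd11: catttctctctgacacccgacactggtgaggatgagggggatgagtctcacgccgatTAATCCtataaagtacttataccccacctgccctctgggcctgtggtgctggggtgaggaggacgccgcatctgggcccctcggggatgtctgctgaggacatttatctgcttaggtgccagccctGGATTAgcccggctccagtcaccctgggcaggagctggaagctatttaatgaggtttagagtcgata
Guca1a: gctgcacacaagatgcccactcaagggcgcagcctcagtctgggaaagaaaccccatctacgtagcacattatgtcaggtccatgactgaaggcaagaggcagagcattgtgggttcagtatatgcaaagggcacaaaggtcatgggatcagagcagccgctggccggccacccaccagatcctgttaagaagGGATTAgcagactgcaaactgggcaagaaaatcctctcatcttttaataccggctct
Hspa1b: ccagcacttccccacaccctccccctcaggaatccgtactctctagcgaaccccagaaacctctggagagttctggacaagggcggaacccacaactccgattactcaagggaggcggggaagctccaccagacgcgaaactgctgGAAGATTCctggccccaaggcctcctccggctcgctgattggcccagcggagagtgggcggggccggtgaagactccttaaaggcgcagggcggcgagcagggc
Ifit1: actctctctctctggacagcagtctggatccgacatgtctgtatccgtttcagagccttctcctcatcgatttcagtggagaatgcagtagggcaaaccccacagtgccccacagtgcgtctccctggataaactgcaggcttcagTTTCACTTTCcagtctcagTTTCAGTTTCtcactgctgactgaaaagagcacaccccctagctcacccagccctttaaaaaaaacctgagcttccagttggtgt
The CRX letters began 193 and 67 bases before the start in Samd11 and 57 in Guca1a, the heat shock letters 104 in Hspa1b, and the interferon letters 104 and 85 in Ifit1.

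The promoter table held a window for 14452 of the 18193 genes, 18109 windows in all, each of 300 bases with 250 before and 50 after the start, and both strands were searched. TAATCC was found in 6.1% of all windows, in 10.8% of the 657 windows of called-lower genes and in 4.48% of the 803 of called-higher genes. For the rod and shared photoreceptor lists described below it was in 15 of 39 windows (38.5%), in 10 of the 31 (32.3%) of their called-lower genes and in 2 of 5 of called-lower interferon genes. GAANNTTC was in 6.33% of all windows and in 5 of the 30 windows (16.7%) of genes called higher at least 2-fold, but also in 5 of the 39 rod and shared windows (12.8%) and in 5.73% of all called-higher windows. TGANTCA, the site of the Fos and Jun dimer AP-1, was in 6.38% of all windows and in 4 of the same 30 (13.3%), and in 0 of 15 windows of called-higher immediate early genes. The site of EGR factors, GCGGGGGCG, was in 4.51% of all windows and in 3 of the same 15. The cyclic AMP response element TGACGTCA was in 2.49% of all windows and 1.25% of called-higher ones, the STAT site TTCNNNGAA, which can overlap a heat shock element, in 7.21% and 5.85%, and the interferon response element in 3.03% of all windows and 1 of the 5 windows of called-lower interferon genes. These counts describe letters in a window and were not tested.

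Pde6b, on chromosome 5, was lower in rd1. The WT arrays read 13.15, 13.14 and 13.17 and the rd1 arrays 11.42, 11.23 and 11.43, so the groups stood apart. The difference was -1.79 ± 0.17, a 3.47-fold fall (adjusted p = 2e-10, limma), and the transcript was still measured in rd1. It was 1 of 397 genes within 20 Mb of its own position, of which 37 were called (9.32%, against 7.5% of all genes), 16 higher and 21 lower. Of the 37, 3 were also among the 7 genes called at PN9. These were Pde6b, Zfp33b, a zinc finger gene at -0.90 ± 0.12, and Dipk1a, at 0.78 ± 0.10 (adjusted p = 3.47e-07 and 5.92e-07, limma). Zfp33b was at -0.90 at PN9 and Dipk1a at 1.67.

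Genes of the rod light response were lower in rd1. Of 18 measured rod genes, 15 were called lower and 0 higher, with a median of -0.55 against 0.026 over all genes. The rd1 arrays lay wholly below the WT arrays for 18 of 18, against 8.17% of all genes. In whole tissue, fewer rods and less RNA per rod cannot be told apart. The mean of the list per array was 12.31, 12.27 and 12.34 in WT and 11.75, 11.76 and 11.75 in rd1. Cnga1, the channel subunit that cyclic GMP opens, read 11.91, 11.84 and 11.97 in WT and 11.10, 11.10 and 11.15 in rd1. It differed by -0.79 ± 0.10 (adjusted p = 1.46e-07), with no overlap, and its partner subunit Cngb1 by -0.67 ± 0.09. Guca1b, which makes cyclic GMP synthesis depend on calcium, read 12.99, 12.98 and 13.22 against 12.19, 12.16 and 12.19, a difference of -0.88 ± 0.16 (adjusted p = 0.000154). The rhodopsin kinase Grk1 was at -0.68 ± 0.12 and Pde6a, the other catalytic subunit of the rod phosphodiesterase, at -0.66 ± 0.19 (adjusted p = 0.0193). Smaller falls were called for others. Sag, rod arrestin, fell by 0.26 and Gnb1, a transducin subunit, by 0.24, while Gnat1, the transducin alpha subunit, was at -0.34 ± 0.23 and was not called (adjusted p = 0.518, limma). Susd3 had the largest fall of the list on the probe sets used, -0.95 ± 0.13. On other probe sets Susd3 was at -0.41 and Guca1b at -1.28. Slc24a1, the rod sodium-calcium exchanger, was at -0.70 and was not called when any 1 of the 6 arrays was left out (adjusted p 0.0804 to 0.108).

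Genes that rods and cones share moved the same way. Of 22 measured, 18 were called lower and 0 higher (median -0.44). The rd1 arrays lay wholly below WT for 21, against 8.17% of all genes. Fscn2, an actin-bundling protein of the outer segment, read 8.42, 8.16 and 8.37 in WT and 7.45, 7.22 and 7.15 in rd1. It had the largest difference of the list, -1.04 ± 0.13 (adjusted p = 1.84e-07, limma). Prph2, a structural protein of outer segment discs, read 11.36, 11.37 and 11.70 against 10.75, 10.63 and 10.76, a difference of -0.76 ± 0.16. The guanylate cyclase Gucy2e was at -0.82 ± 0.15, its activator Guca1a at -0.60 ± 0.11, and Rdh12, a retinol dehydrogenase, at -0.72 ± 0.12. Abca4, the retinoid flippase of discs, was at -0.61 ± 0.09, and Rgs9, which switches transducin off, at -0.59 ± 0.11. The 4 members not called were Aipl1, Gnb5, Otx2 and Rbp3, at -0.14 to -0.27.

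Some transcription factors of photoreceptors were lower as well. Of 23 regulators, 7 were called lower and 0 higher (median -0.16). Samd11, a silencing partner in rods, read 12.07, 12.36 and 12.14 in WT and 11.44, 11.38 and 11.20 in rd1, a difference of -0.85 ± 0.10 (adjusted p = 2.51e-08, limma). Crx, which drives photoreceptor genes, read 12.50, 12.40 and 12.47 against 11.94, 11.98 and 12.10, a difference of -0.45 ± 0.06 (8.55e-07). Both genes had groups that did not overlap. Nrl, which sets rod identity, was at -0.40 ± 0.06, Prdm1, which favours the photoreceptor over the bipolar fate, at -0.66 ± 0.08, and Ankrd33 at -0.60 ± 0.10. Esrrb, at -0.51, was not called when 1 of 5 of the 6 arrays was left out (adjusted p 0.0579 to 0.134). Neurod1 was the seventh, at -0.24.

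Some lipid and cilium genes of the outer segment and some of the photoreceptor synapse were lower too. Of 25 lipid and cilium genes, 8 were called lower and 0 higher (median -0.19), led by Rp1l1, a microtubule protein of the axoneme, at -0.67 ± 0.09. Elovl4, which makes very long fatty acids for disc membranes, was at -0.46. Of 20 synapse genes, 7 were called lower and 1 higher (median -0.22), and 4 were called lower without rd1 PN13 replicate 1. Slc17a7, which loads glutamate into vesicles, read 11.74, 11.85 and 11.81 in WT and 11.17, 11.32 and 11.24 in rd1, a difference of -0.55 ± 0.14 (adjusted p = 0.0094, limma) with no overlap. Without that array it was at -0.52 (adjusted p = 0.0522). Dag1, which links the terminal to bipolar cell dendrites, was the member called higher, at 0.29 ± 0.05, while Dmd, its partner dystrophin, was called lower at -0.49 ± 0.08.

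Cone genes were called in both directions. Of 15 cone genes, 3 were called higher and 1 lower, which is 26.7% against 7.5% of all genes (median 0.15). Arr3, cone arrestin, read 9.90, 9.62 and 10.08 in WT and 10.27, 10.53 and 10.72 in rd1, with a difference of 0.64 ± 0.12 (adjusted p = 0.000135, limma) and no overlap. Pde6h, the cone phosphodiesterase inhibitory subunit, was at 0.64 ± 0.18 (0.0167) and Gnb3, a cone transducin subunit that ON bipolar cells also make, at 0.30 ± 0.08 (0.0147). Only Arr3 of the 3 remained called without rd1 PN13 replicate 3. Gulo was called lower, at -0.37 ± 0.09. The cone pigments Opn1sw and Opn1mw were at 0.12 and 0.15 and were not called.

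**Figure D2:**
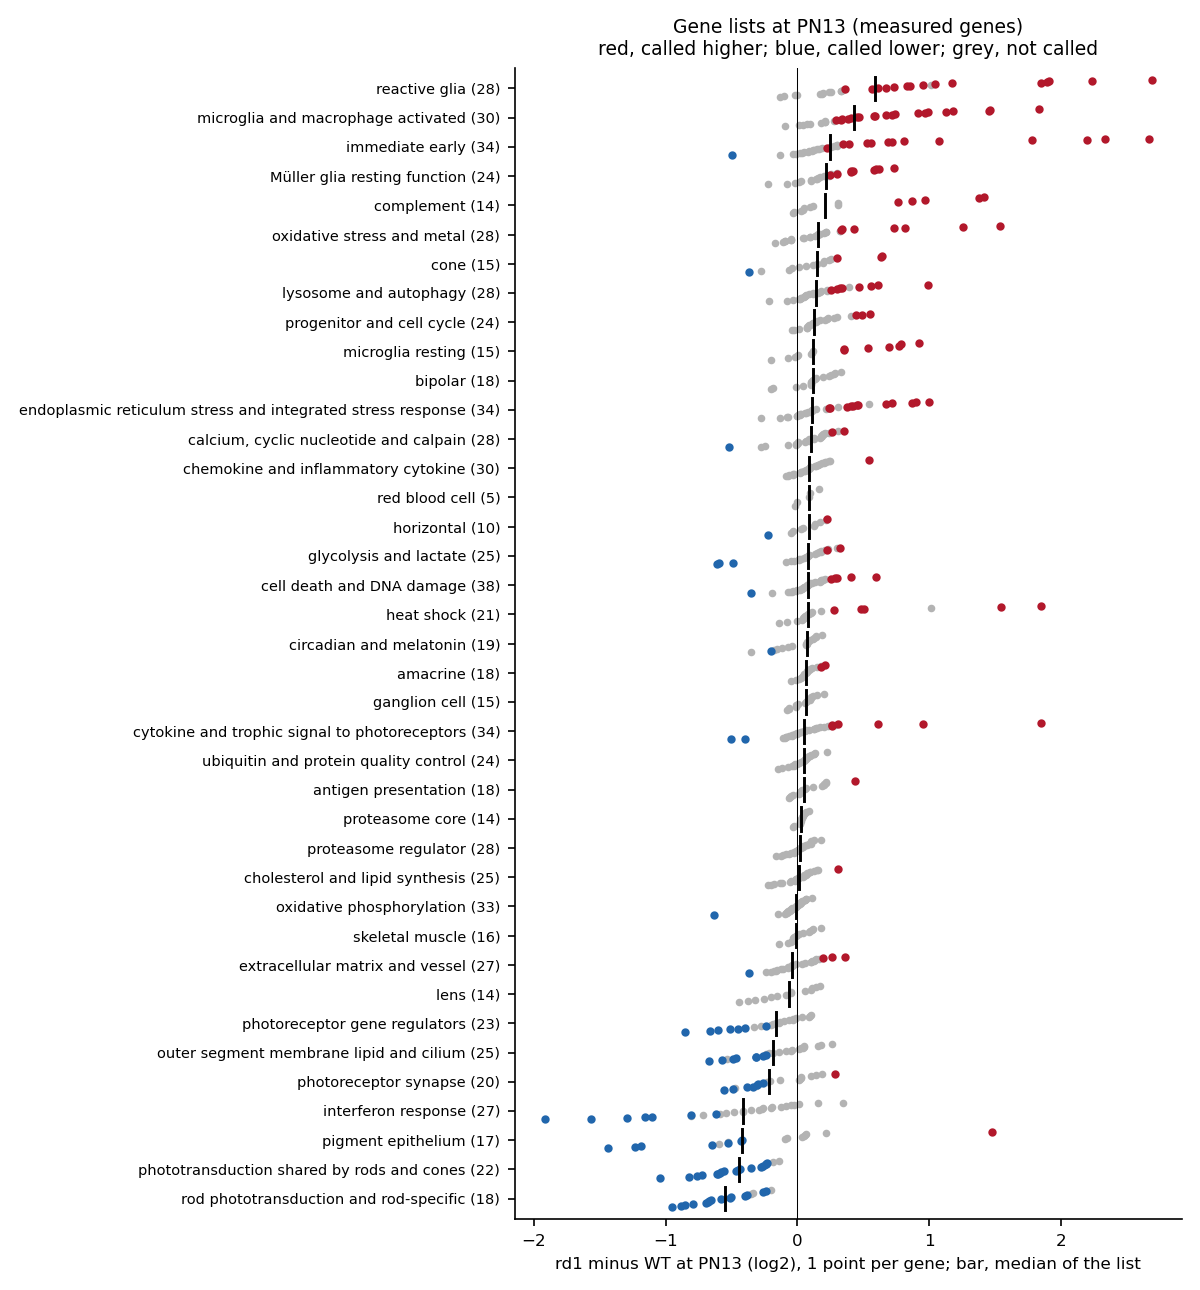
Difference between rd1 and WT at PN13 (log2, x axis) for each measured member of 39 gene lists (y axis, number measured in brackets), ordered by median. Red and blue points were called higher and lower, grey points were not called and black bars are medians; reactive glia has the highest median (0.59) and the rod list the lowest (-0.55).

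Some immediate early genes, which cells transcribe within minutes of a stimulus, were among the largest rises. Of 34 measured, 13 were called higher and 1 lower (median 0.25). Fos read 9.36, 9.26 and 9.33 in WT and 11.89, 11.96 and 12.09 in rd1. The difference was 2.66 ± 0.16, a 6.34-fold rise (adjusted p = 3.57e-16, limma), and the groups were far apart against their spread. Egr1, a zinc finger factor, read 10.05, 9.91 and 10.34 against 12.26, 12.33 and 12.31, a difference of 2.20 ± 0.19, and Fosb, a relative of Fos, rose by 2.33 ± 0.12. Nr4a1, an orphan nuclear receptor, rose by 1.78 ± 0.10 and Junb, a dimer partner of Fos, by 1.08 ± 0.10. Other members were not called or fell. Jun was at -0.13, Fosl2 at -0.03, Nr4a3 at -0.01 and Egr3 at 0.08, none of them called, and Ier3 was called lower at -0.49 ± 0.07.

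Some chaperones of the heat shock response rose. Of 21 genes, 5 were called higher and 0 lower, which is 23.8% against 7.5% of all genes (median 0.08). Hspa1b, an inducible Hsp70, read 8.99, 8.67 and 8.62 in WT and 10.68, 10.56 and 10.60 in rd1, a difference of 1.85 ± 0.14 (adjusted p = 1.84e-12, limma). Hspa1a, a near-identical copy, read 7.90, 7.91 and 7.63 against 9.34, 9.37 and 9.35, at 1.54 ± 0.20. Arrays may not separate these copies, so their values are not independent. Hsph1, the exchange factor of Hsp70, was at 0.51, and Bag3, its co-chaperone, at 0.48. Cryab, a small chaperone that is also a lens crystallin, read 9.36, 9.41 and 9.41 in WT and 10.45, 10.26 and 10.51 in rd1. Its arrays did not overlap, yet it was not called (1.01 ± 0.55, adjusted p = 0.362, limma). Its SE comes from the spread of this gene over all ages fitted. Hsp90aa1, Hspa8 and Dnajb1 were at -0.14, 0.05 and 0.08 and were not called.

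In the integrated stress response, cells slow translation and make amino acid and redox enzymes. Of 34 genes of this response and of endoplasmic reticulum stress, 12 were called higher and 0 lower (median 0.11). Chac1, which degrades glutathione, read 7.48, 7.45 and 7.43 in WT and 8.30, 8.52 and 8.53 in rd1, at 1.00 ± 0.09 (adjusted p = 7.58e-11, limma). Asns, asparagine synthetase, read 9.11, 9.09 and 9.24 against 10.06, 10.04 and 10.04, at 0.90 ± 0.07. For both genes the groups were well apart. The pseudokinase Trib3 was at 0.87, the kinase Eif2ak3 at 0.67, Atf5 at 0.46 and the death-linked factor Ddit3 at 0.45. Among folding chaperones of the reticulum, Hspa5 was at 0.11 ± 0.07, Hsp90b1 at 0.10, Calr at 0.03 and Pdia4 at -0.13, and none was called, nor was the transcript of Atf4, the factor that drives this response (0.11 ± 0.06).

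Of 28 genes of oxidative stress and metal handling, 7 were called higher and 0 lower (median 0.16). Mt1, a metallothionein that binds zinc, read 9.53, 9.69 and 9.75 in WT and 11.30, 11.02 and 11.26 in rd1, at 1.53 ± 0.15 (adjusted p = 7.31e-10, limma), and Mt2 was at 1.25 ± 0.16. Cyba, a subunit of the oxidase of phagocytes, was at 0.82, and Cp, the iron-oxidising ceruloplasmin, at 0.73. Hmox1, Nqo1 and Txnrd1, textbook targets of Nrf2, were at 0.32, 0.09 and 0.15 and were not called.

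Of 38 genes of cell death and DNA damage, 5 were called higher and 1 lower, which is 15.8% against 7.5% of all genes (median 0.08). Gadd45b, a stress sensor, was at 0.60 ± 0.15 (adjusted p = 0.00549), and the cell cycle inhibitor Cdkn1a at 0.40 ± 0.08 (0.000635, limma). Casp8, Bid and Mcl1 were at 0.30, 0.29 and 0.25, and Gadd45a was called lower at -0.35. The count of 5 was 2 with centring on amacrine and ganglion cell genes, and 2 without rd1 PN13 replicate 1. It was 3 without WT PN13 replicate 1, WT PN13 replicate 3 or rd1 PN13 replicate 2, with the mean of all probe sets and with the compared arrays alone. Executioners and sensors that were not called included Casp9 (0.13), Casp6 (0.17), Parp1 (-0.06), Ripk3 (0.19), Mlkl (0.10) and Nlrp3 (0.11). Among 28 genes of calcium, cyclic nucleotides and calpain, 2 were called higher and 1 lower (10.7%, against 7.5% of all genes). Prkg1, a kinase that cyclic GMP activates, was at 0.36, Capn2, a calpain, at 0.27, and Kcnv2, a potassium channel subunit of photoreceptors, at -0.52.

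Of the 14 core subunits of the proteasome 0 were called by limma, and of its 28 regulator and assembly genes 0. At an unadjusted p under 0.05 there were 0 core genes and 1 regulator gene, against 16.9% of all genes. Core subunits lay between -0.04 and 0.08 (median 0.031) and regulator genes between -0.16 and 0.18 (median 0.022), and both medians turned negative with centring on amacrine and ganglion cell genes (-0.033 and -0.042). Of 24 ubiquitin and quality control genes, 0 were called and 2 had an unadjusted p under 0.05, 1 in each direction. Psmb9, an inducible subunit of immune cells, was called higher at 0.44 ± 0.13 (adjusted p = 0.0348), but its WT and rd1 arrays overlapped and the call was lost in 8 alternatives. These values are of RNA and give no protein level or activity.

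Lysosomal genes rose in part. Of 28 lysosome and autophagy genes, 8 were called higher and 0 lower (median 0.14). The proteases Ctsz and Ctsd were at 0.99 ± 0.10 and 0.61 ± 0.06, and Grn and Hexa at 0.56 and 0.46. Ctsz is also in the list of activated microglia and macrophages given below. Which cells carried these rises was not tested. The autophagy genes Becn1, Map1lc3b and Atg7 were at 0.06, 0.03 and 0.05 and were not called.

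**Figure D3:**
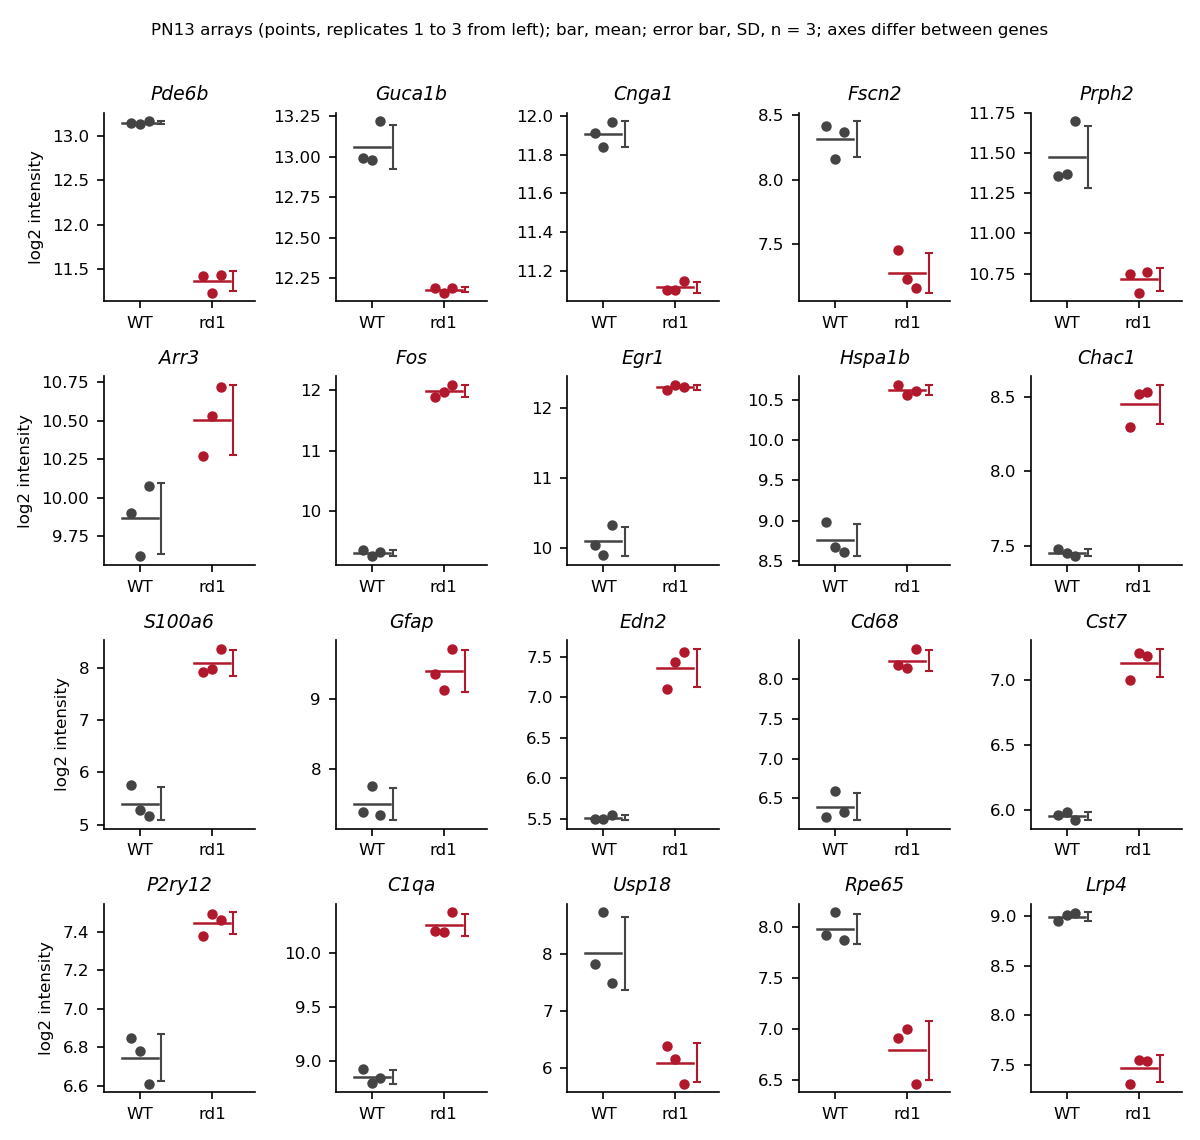
Log2 intensity (y axis) of 20 genes in the 3 WT (grey) and 3 rd1 (red) arrays of PN13; bars are means and error bars SD, n = 3. The 20 genes were picked from the named genes with their values known, and in each panel the rd1 arrays lie wholly above or wholly below the WT arrays. Over all genes the rd1 arrays lay wholly above WT for 13.6% and wholly below for 8.17%.

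Müller cells, the radial glia of the retina, raise a set of genes on injury. Of 28 reactive glia genes, 15 were called higher and 0 lower, and the median was the highest of the 39 lists (0.59). Gfap, an intermediate filament, read 7.40, 7.77 and 7.35 in WT and 9.36, 9.13 and 9.72 in rd1, at 1.89 ± 0.18 (adjusted p = 4.92e-10, limma). S100a6, a calcium-binding protein, read 5.76, 5.29 and 5.17 against 7.92, 7.99 and 8.37. It was the largest rise of all called genes, 2.69 ± 0.22, a 6.44-fold difference (6.33e-12). The acute-phase factors Cebpd and Cebpb rose by 2.24 ± 0.12 and 1.91 ± 0.16, the hyaluronan receptor Cd44 by 1.05 ± 0.15, the protease inhibitor A2m by 1.17 ± 0.10 and Vim, vimentin, by 0.57 ± 0.06. Members that were not called included Lcn2 (-0.13), Timp1 (0.33), Nes (0.19) and Fgf2 (0.17). Several of these genes are also made by other cells, Cd44 and A2m among them.

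Genes of resting Müller cell function rose in part. Of 24, 9 were called higher and 0 lower (median 0.22). The apolipoproteins Clu and Apoe were at 0.60 ± 0.12 and 0.40, the glutamate transporter Slc1a3 at 0.41 and the tetraspanin Cd9 at 0.58. Apoe and Cd9 are also in the activated microglia list, so their rises are not particular to Müller cells. Glul, glutamine synthetase, read 12.78, 12.73 and 12.68 in WT and 12.45, 12.47 and 12.60 in rd1 and was not called (-0.22 ± 0.10, adjusted p = 0.26). Rlbp1, a retinoid carrier of Müller cells and pigment epithelium, was at -0.08 and was not called.

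Signals between photoreceptors and Müller cells moved in some members. Of 34 cytokine and trophic genes, 6 were called higher and 2 lower, which is 23.5% against 7.5% of all genes. The list median was 0.05, or -0.01 with centring on amacrine and ganglion cell genes. Edn2, the endothelin that injured photoreceptors make, read 5.49, 5.50 and 5.55 in WT and 7.10, 7.43 and 7.56 in rd1, at 1.85 ± 0.14 (adjusted p = 1.19e-12, limma). Stat3, which relays cytokines of the interleukin 6 family, was at 0.95 ± 0.08, its feedback inhibitor Socs3 at 0.61 ± 0.10 (1.76 and 1.31 on its other probe sets) and their shared receptor Il6st at 0.31. Lif, the cytokine placed upstream of Edn2 in other models, read 6.19, 6.21 and 6.25 in WT and 6.34, 6.28 and 6.03 in rd1, so the groups overlapped. Lifr, its receptor, was called lower at -0.39 ± 0.09, and Nxnl1, a trophic factor from rods for cones, at -0.50 ± 0.11. The count of 6 was 3 without WT PN13 replicate 1, WT PN13 replicate 3 or rd1 PN13 replicate 1.

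Microglia, the resident phagocytes, had the largest share of called genes among the immune lists. Of 30 genes of activated microglia and macrophages, 20 were called higher and 0 lower (median 0.43). The mean of the list was 7.47, 7.47 and 7.52 in WT and 8.05, 8.05 and 8.08 in rd1. Cd68, a lysosomal protein of phagocytes, read 6.27, 6.59 and 6.33 in WT and 8.17, 8.13 and 8.38 in rd1, at 1.83 ± 0.11 (adjusted p = 4.9e-16, limma). Tyrobp, the adaptor of Trem2, was at 1.45 ± 0.10, Ly86 at 1.46 ± 0.10, the protease inhibitor Cst7 at 1.18 ± 0.08 and lysozyme Lyz2 at 1.13 ± 0.08. Trem2 itself, a lipid receptor, was at 0.59 ± 0.11. Among members not called were Itgax (0.18), Clec7a (0.21), Gpnmb (0.07), Lpl (0.21) and Cybb (-0.09).

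Of 15 genes of resting microglia, 7 were called higher and 0 lower (median 0.12), and 4 lay below 0. P2ry12, a nucleotide receptor of surveying microglia, read 6.85, 6.78 and 6.61 in WT and 7.38, 7.50 and 7.46 in rd1, at 0.70 ± 0.11 (adjusted p = 2.12e-05, limma). Csf1r, the receptor that keeps microglia alive, was at 0.79 ± 0.08, Fcrls at 0.92 ± 0.08 and the fractalkine receptor Cx3cr1 at 0.54 ± 0.10. Tmem119, Siglech and Sall1 were at -0.02, -0.01 and 0.12 and were not called. More microglia and more RNA per microglial cell cannot be told apart here.

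Of 14 complement genes, 5 were called higher and 0 lower (median 0.21). C1qa read 8.92, 8.79 and 8.84 in WT and 10.21, 10.20 and 10.38 in rd1, at 1.41 ± 0.10, and C1qc, a subunit of the same complex, was at 1.37 ± 0.09 (adjusted p = 1.97e-13 and 5.81e-15, limma). C1qb was at 0.87 on the probe set that stands for it and at 1.66 and 1.63 on its others, the inhibitor Serping1 at 0.97 and the receptor C3ar1 at 0.76. Of 30 chemokine and inflammatory cytokine genes 1 was called (3.33%, against 7.5% of all genes), the tumour necrosis factor receptor Tnfrsf1a at 0.54 ± 0.06. At an unadjusted p under 0.05, which 16.9% of all genes reached in either direction, 8 were higher. The rd1 arrays lay wholly above WT for 8, against 13.6% of all genes. Ccl2, Ccl3, Cxcl10, Tnf and Il1b were at 0.02, 0.24, 0.19, 0.08 and -0.03 and were not called. Antigen presentation had 1 call of 18 (5.56%, against 7.5% of all genes), Psmb9, and B2m, the class I light chain, was at 0.02.

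Of 27 interferon-induced genes, 7 were called lower and 0 higher at PN13 (median -0.41), and 24 lay below 0. The rd1 arrays lay wholly below WT for 11, against 8.17% of all genes, and the calls depended on 1 WT array, as given below. Usp18, a protease that limits interferon signalling, read 7.81, 8.72 and 7.48 in WT and 6.39, 6.15 and 5.72 in rd1, at -1.91 ± 0.46 (adjusted p = 0.00402, limma). In WT the same gene read 5.43 and 5.52 at PN12 and 5.22 and 5.38 at PN15, below each WT array of PN13. Oasl2 was at -1.57 ± 0.44, Ifit1 at -1.29 ± 0.39, Lgals3bp at -1.16 ± 0.31, Rtp4 at -1.10 ± 0.31 and the transcription factor Irf9 at -0.81 ± 0.19. Outside the list, Ddx60, a helicase that interferon induces, was at -1.25 ± 0.27. WT PN13 replicate 2 was the highest array for each of these 7 genes. Without it, 0 of the 27 were called by limma and 8 were lower at an unadjusted p under 0.05, with a median of -0.27, and Usp18 was at -1.55 (adjusted p = 0.0576). Leaving out rd1 PN13 replicate 2, or rd1 PN13 replicate 3, gave 3 calls, as did the setting in which the dimmest 30% of genes were left out, which left 16 of the 27.

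The mean of the interferon list per array was 7.44, 7.89 and 7.38 in WT at PN13 and 7.29, 6.99 and 6.90 in rd1. At PN12 it was 6.60 and 6.56 in WT and 6.80 and 6.69 in rd1, and at PN15 it was 6.65 and 6.65 in WT and 7.10 and 7.87 in rd1. At PN11 arrays of both genotypes were spread, with WT at 6.55, 7.15 and 7.11 and rd1 at 6.64, 6.62 and 7.34. The level of the list thus differed between arrays of 1 genotype and age, and what set it was not tested.

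**Figure D4:**
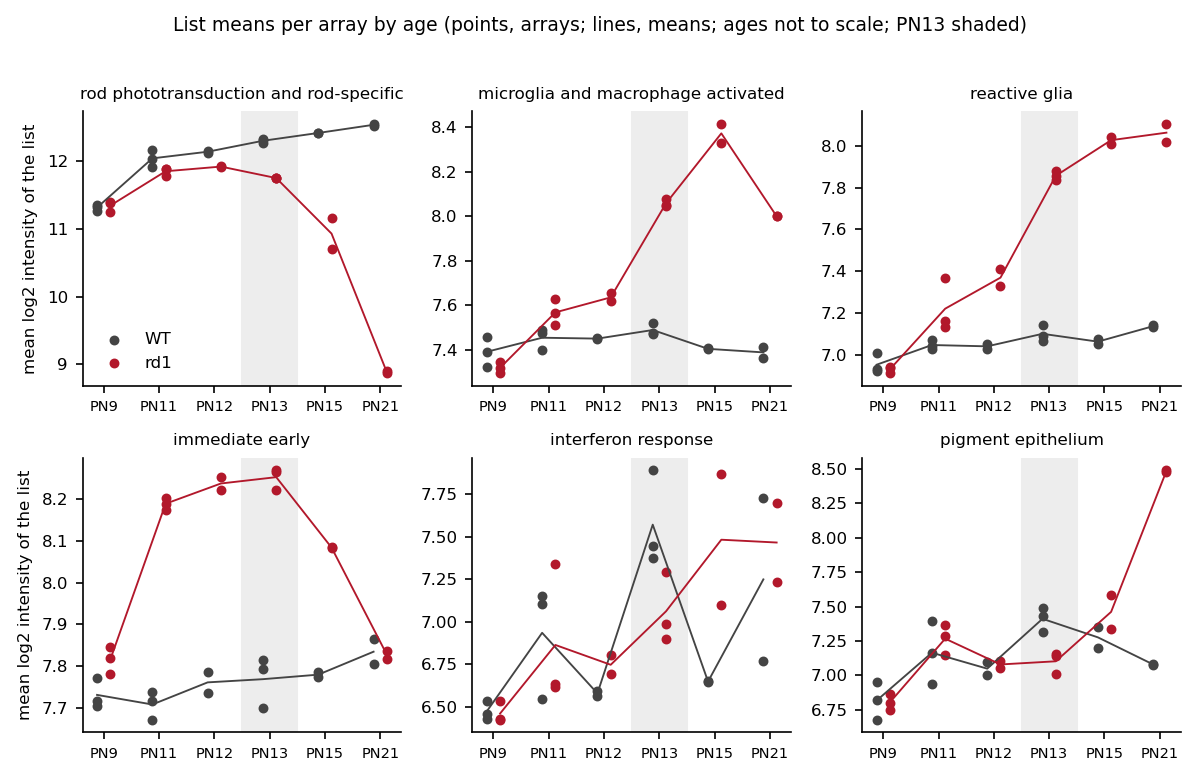
Mean log2 intensity of 6 gene lists (y axis) in each array by age (x axis, PN9 to PN21, not to scale), WT in grey and rd1 in red; lines join the means and PN13 is shaded. In the interferon panel the 3 WT arrays of PN13 (7.38 to 7.89) lie above the WT arrays of PN12 and PN15, and in the activated microglia panel the 3 rd1 arrays of PN13 (8.05 to 8.08) lie above the 3 WT arrays (7.47 to 7.52).

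Pigment epithelium genes were lower in rd1 in part. Of 17 genes of this layer, which lies behind the neural retina, 7 were called lower and 1 higher (median -0.42). Rpe65, the isomerase of the visual cycle, read 7.92, 8.14 and 7.87 in WT and 6.91, 7.00 and 6.46 in rd1, at -1.19 ± 0.20 (adjusted p = 4.8e-05, limma). Rgr, a retinal G protein-coupled opsin also made by Müller cells, was at -1.44 ± 0.21, and Ttr, the thyroid hormone carrier, at -1.23 ± 0.33. The mean of the list was 7.32, 7.49 and 7.43 in WT and 7.16, 7.14 and 7.01 in rd1. At PN12 Rpe65 read 7.17 and 7.29 in WT and 6.95 and 6.87 in rd1. Among pigment genes, Tyrp1 was called lower at -0.52 ± 0.16, Dct and Pmel were at -0.59 and -0.52 with adjusted p of 0.0604 and 0.0569 (limma), and Tyr and Mlana, at -0.08 and -0.09, were not called. Krt18, a keratin placed in this list, was called higher at 1.48 ± 0.13. The part of adhering pigment epithelium in these differences was not tested, and the count of 7 was 4 without WT PN13 replicate 2.

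Markers of other tissue were not called. No lens gene of 14, no red blood cell gene of 5 and no skeletal muscle gene of 16 was called by limma. Of these 35, 1, a red blood cell gene, had an unadjusted p under 0.05, against 16.9% of all genes. The SE of a lens gene comes from its spread over all ages fitted. It was 0.94 for Cryba4, 0.78 for Crybb1, 0.67 for Crybb2 and 0.76 for Crybb3. With SEs of that size, the lack of calls cannot show whether lens genes differed at PN13. The mean of the lens list ran from 6.51 to 7.05 in the 6 arrays, against up to 12.48 elsewhere in the series, and in neither genotype were all arrays above the other. Of 27 vessel and matrix genes 14.8% were called, against 7.5% of all genes. Those called higher were 3, Kdr, Lama1 and Sparc, and 1 was lower, Pecam1 at -0.37. The 3 became 1 without WT PN13 replicate 1, rd1 PN13 replicate 1 or rd1 PN13 replicate 3, and with centring on amacrine and ganglion cell genes.

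Among inner retinal neurons, 0 of 18 bipolar cell genes and 0 of 15 ganglion cell genes were called (limma). Of 18 amacrine cell genes 2 were called higher (11.1%, against 7.5% of all genes), and of 10 horizontal cell genes 1 in each direction. At an unadjusted p under 0.05 there were 3 higher and 1 lower bipolar cell genes and 1 ganglion cell gene, against 16.9% of all genes. The bipolar median was 0.12, and the rd1 arrays lay wholly above WT for 11 of the 18, against 13.6% of all genes, with Rgs11, a regulator of the ON bipolar response, at 0.33 and Prkca, a rod bipolar kinase, at 0.13. The amacrine calls were Stx1a and Tfap2b, at 0.21 and 0.18. Both calls ended with the mean of all probe sets and with the compared arrays alone. They also ended with centring on amacrine and ganglion cell genes (adjusted p 0.0592 to 0.241 over these settings, limma). Both genes are among the 33 centred on, so that setting is no separate check of them. The ganglion cell marker Rbpms was at -0.08 and the starburst amacrine marker Chat at 0.04.

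Some energy genes were called in each direction. Of 25 genes of glycolysis and lactate, 3 were called lower and 2 higher (median 0.08). Slc16a1, a lactate transporter, read 11.43, 11.23 and 11.46 in WT and 10.74, 10.82 and 10.79 in rd1, at -0.59 ± 0.11 (adjusted p = 0.000135, limma). Ckmt1, the mitochondrial creatine kinase, was at -0.61 ± 0.11 and Slc16a8, a lactate transporter of pigment epithelium, at -0.49 ± 0.12. Pdk1 and Tpi1 were higher, at 0.32 and 0.22. Of 33 genes of oxidative phosphorylation, 1 was called (3.03%), Ppargc1a, a coactivator of mitochondrial genes. It read 9.37, 9.39 and 9.34 against 8.73, 8.74 and 8.72, at -0.63 ± 0.10, while the other 32 lay between -0.15 and 0.11. Of 25 cholesterol and lipid synthesis genes 1 was called (4.0%), Abca1 at 0.31. Of 24 progenitor and cell cycle genes 3 were called higher (12.5%, against 7.5% of all genes). These were Top2a, Ccnd3 and Ccnd2, at 0.55, 0.49 and 0.45, and 1 was called with the mean of all probe sets. Of 19 circadian genes 1 was called (5.26%), Arntl at -0.20.

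Probe sets of a gene often gave differences of unequal size. The text gives the brightest one, and of 78 named called genes with more than 1, 50 had another at under the printed difference divided by 1.5, and 4 had another at over 1.5 times it. The other probe set of Samd11 was at -0.02, that of Cebpd at 0.19 and that of Mt1 at 0.07. Of the others of Lyz1, 1 was at -0.06 and 1 at 1.48, and those of Gfap were at 2.50 and 0.63.

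Several of the largest differences belonged to no list. Pdzph1 read 10.29, 10.15 and 10.49 in WT and 8.17, 8.45 and 8.38 in rd1 and had the largest fall of all called genes, -1.97 ± 0.19 (adjusted p = 2.26e-10, limma). Lrp4, a receptor of the lipoprotein receptor family that modulates Wnt signals, read 8.95, 9.01 and 9.03 against 7.31, 7.55 and 7.54, at -1.53 ± 0.09. Cltrn, a relative of the angiotensin-converting enzymes, was at -1.66 ± 0.15, Glb1l2 at -1.31 ± 0.11 and the tight junction protein Cldn7 at -1.07 ± 0.10. Among rises, Pcolce, an enhancer of procollagen processing, read 6.17, 6.21 and 6.15 in WT and 8.49, 8.44 and 8.40 in rd1. Its difference was 2.26 ± 0.12, and 0.98 on its other probe set. For Pdzph1, Lrp4 and Pcolce the groups lay apart by many times their spread.

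The difference was then compared with that at PN12, an age with 2 arrays per genotype and none in common. It had changed for 14 genes (0.077%), rising for 10 and falling for 4, although 154 genes were called at PN12 and 1364 at PN13. Of the 10 rises, 5 were in the activated microglia list of 30 genes and 1, C1qc, in the complement list of 14. Cd68 went from 0.83 to 1.83, a change of 1.00 ± 0.17 (adjusted p = 0.00249, limma), Ly86 from 0.47 to 1.46 (change 0.99 ± 0.16) and Cst7 from 0.22 to 1.18 (change 0.96 ± 0.12, adjusted p = 3.1e-05). Lyz2 and Tyrobp were the others of that list, and Lyz1, a lysozyme, was in no list. On another probe set Lyz1 was at -0.06 at PN13, and whether its values are independent of those of Lyz2 was not tested. Pcolce went from 1.00 to 2.26 (change 1.26 ± 0.20), and E2f6 and Prtg changed by 0.54 and 0.48. The falls were those of Lrp4, from -0.70 to -1.53, Samd11, from -0.09 to -0.85, Tapt1 (change -0.40) and Ces2f (change -0.62), a carboxylesterase that was not called at PN13. Leaving out WT PN12 replicate 1 left 7 such genes, and leaving out rd1 PN12 replicate 1 left 6. The change of Cd68 was not called without WT PN12 replicate 2 (0.88, adjusted p = 0.0686) or rd1 PN12 replicate 1 (0.94, adjusted p = 0.0778), nor that of Lrp4 without WT PN12 replicate 2 (-0.71, adjusted p = 0.055). Those of Samd11, Lyz1, Tapt1 and Ces2f were lost in 8, 3, 14 and 10 alternatives.

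From PN13 to PN15 the difference changed for 704 genes (3.87%), of which 181 moved up and 523 down. Of the 523, 274 were genes already called lower at PN13. For 15 of the 18 rod genes it moved further down, Cnga1 going from -0.79 to -2.12 (change -1.33 ± 0.16, adjusted p = 3.21e-07, limma). Of the 181, 44 were called higher at PN13, among them C1qa, at 1.41 and then 2.78 (change 1.37 ± 0.16). Some stress genes moved the other way. Hspa1b went from 1.85 to 0.26 (change -1.59 ± 0.23) and Hspa1a from 1.54 to -0.05 (change -1.59 ± 0.31), and at PN15 neither was called. Fos went from 2.66 to 1.58 (change -1.08 ± 0.25). Kcnj14, a potassium channel, Nt5e, the ecto-nucleotidase CD73 of rods, and Prss56, a protease of Müller cells, changed by -1.72, -1.43 and -1.47.

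The 5 largest upward changes to PN15 were those of Oasl2, Ifitm3, Usp18, Lgals3bp and Ddx60, genes that interferon induces. Of the 27 genes of the list, 18 moved up and 0 down. Oasl2 went from -1.57 to 2.02 (change 3.59 ± 0.69, adjusted p = 0.000735, limma) and Usp18 from -1.91 to 1.50 (change 3.41 ± 0.72). Ifitm3, a restriction factor of virus entry, went from -0.81, not called at PN13, to 2.69 (change 3.50 ± 0.63). The difference of the list thus had opposite signs at the 2 ages, with medians of -0.41 and 0.77, on WT levels that were 7.38 to 7.89 at PN13 and 6.65 at PN15. Rgr and Rpe65 of the pigment epithelium list moved from -1.44 to 0.04 and from -1.19 to -0.03. The count of 704 was 398 without WT PN15 replicate 1 and 352 without rd1 PN15 replicate 1, and 5083 with centring on amacrine and ganglion cell genes, which were themselves higher in rd1 at PN15 (list medians 0.39 and 0.34).

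**Figure D5:**
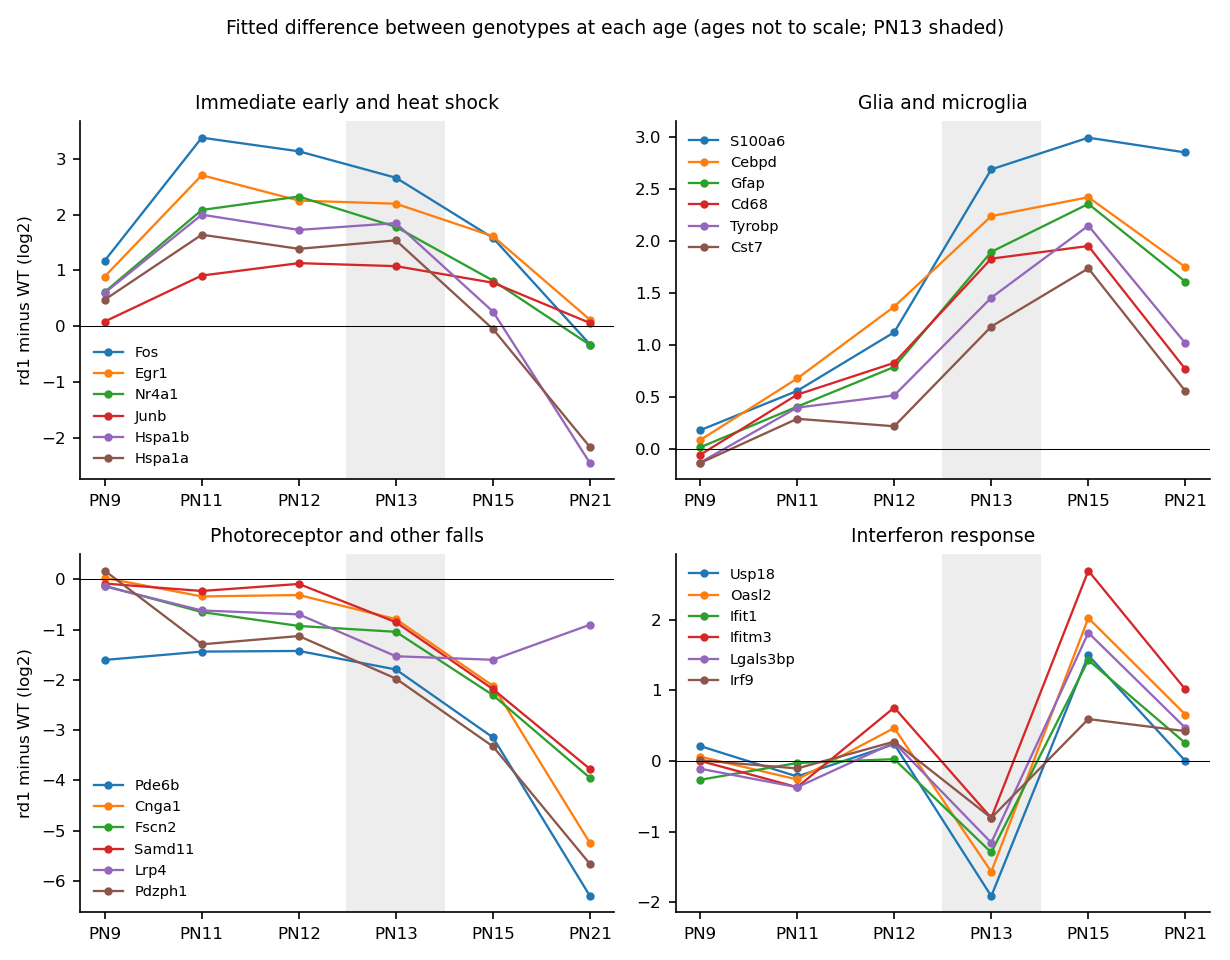
Fitted difference between rd1 and WT (log2, y axis) by age (x axis, PN9 to PN21, not to scale) for 24 genes in 4 panels, with PN13 shaded. Hspa1b falls from 1.85 at PN13 to 0.26 at PN15, S100a6 and Cebpd stay above 2 at both ages, Cnga1 falls from -0.79 to -2.12, and the interferon genes are below 0 at PN13 and above 0 at PN15.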

How the data were processed

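Neural retina RNA was hybridised to 1-colour arrays. The authors deposited linear intensities, as the values show, 1 for each probe set of an array, made with RMA per the submitters' processing notes, whose version is not given in the sources used here, nor whether all arrays were normalized together. The design had assumed log2 values, so log2 was taken here, with no further normalization or filter. The deposited table gives no detection calls or background, and precision is limited by how few arrays there are. Of 45037 probe sets, 34945 had 1 symbol in the platform annotation, 932 several and 9160 none, and the probe set with the highest mean stood for each of 18193 genes. A model with a mean per genotype and age was fitted with limma 3.58.1 (R 4.3.3, trended empirical Bayes moderation) to the 50 arrays of the 10 ages with replicates (30 residual degrees of freedom), and p-values were adjusted by Benjamini-Hochberg over all genes, with a threshold of 0.05. The same fit tested the change of the difference from PN12 and to PN15.

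The members and lists were chosen with earlier results of these data known. Named genes were the 15 largest rises and falls with non-overlapping arrays, up to 6 members per list by size of difference with called ones first, the 5 largest changes each way between ages, up to 10 called genes within 20 Mb of Pde6b, and Pde6b. A selection of the 252 is given. Other genes in the text, such as Gnat1, Pde6a, Sag, Rgs9, Neurod1, Dag1, Ier3, Jun, Ddit3, Cd44, Vim, Apoe, Glul, Lif, Trem2, Tyr, Mlana, E2f6, Prtg, Xist and the remaining members given as not called, were chosen after their values were seen. Alternatives changed the normalization, filter, probe set rule, moderation, array weights, arrays fitted, pseudocount and replicate block, and left out each array in turn. The scripts were tested on simulated data.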

Additional observations from a re-analysis of the deposited data

Results flagged for a closer look

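The difference between rd1 and WT was tested for change between neighbouring ages (limma, Benjamini-Hochberg adjustment), and the results below passed that test. From PN12 to PN13 it changed for 14 genes. It rose for Pcolce (1.258), Cd68 (1.0), Ly86 (0.99), Lyz1 (0.985) and Cst7 (0.958), which carry the 5 largest rises on the log2 scale. It fell for Lrp4 (-0.834), Samd11 (-0.762), Ces2f (-0.62) and Tapt1 (-0.401), which are the 4 falls. Leaving out 1 array of PN12 or PN13 ended the call for Cd68, Lyz1, Lrp4, Samd11, Ces2f or Tapt1 in at least 1 case each.

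From PN13 to PN15 it changed for 704 genes. The rises named were those of Oasl2 (3.59), Ifitm3 (3.498), Usp18 (3.409), Lgals3bp (2.972) and Ddx60 (2.927), all induced by interferon. The falls named were those of Kcnj14 (-1.721), Hspa1a (-1.592), Hspa1b (-1.589), Prss56 (-1.465) and Nt5e (-1.426).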

How the results depend on the processing

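With 3 arrays per genotype, calls depended on single arrays. Leaving out each PN13 array gave 982 to 1142 called genes against 1364, 503 to 649 higher against 744, and 479 to 527 lower against 620. Centring on 33 amacrine and ganglion cell genes gave 422 higher and 941 lower, so that 31.0% of calls were higher against 54.5%, and moved the median of all genes from 0.026 to -0.038. Under the other alternatives 1250 to 1704 genes were called. The 14 genes whose difference changed from PN12 became 26 with the mean of all probe sets, 57 with array weights, 46 with the compared arrays alone and 22 with log2(intensity + 16). Leaving out each array of PN12 and PN13 gave 6 to 16, with 7 when WT PN12 replicate 1 was out and 6 when rd1 PN12 replicate 1 was. The 704 whose difference changed to PN15 became 5083 with centring, and leaving out each array gave 352 to 968, with 398 without WT PN15 replicate 1 and 352 without rd1 PN15 replicate 1. The PN12 and PN15 arrays were left out as alternatives chosen after seeing the data. No named gene or test of change turned its direction in a called value, but list medians near 0 did. With centring, those of the core proteasome (0.031 to -0.033), its regulators (0.022 to -0.042), ubiquitin (0.051 to -0.013), cytokines (0.052 to -0.012), antigen presentation (0.05 to -0.015) and cholesterol (0.014 to -0.05) turned negative, and the balance of calls turned to mostly lower. Of the 252 named genes, 14 to 24 lost their call without 1 PN13 array and 17 with centring. The replicate numbers did not pair the arrays (same-number correlations of -0.442, -0.321 and -0.035), and a fit with the replicate block called 1352 genes at PN13, 17 for the change from PN12, and ended the call of 4 named genes. The cause of these moves was not tested.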
